A study of Homo sapiens with 2 samples.

Results

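The 4 genes NQO1, HMOX1, GCLM and SLC7A11 are all targets of the transcription factor NRF2. They were examined in the genome-wide list of summits that came with a Myocardin ChIP-seq series. Each gene was represented by its GRCh37 span extended by 20 kb on each side. The 4 windows together covered 291.1 kb and held 8 of the 105637 summits of the list. The summits came from 3 of the 4 genes, and SLC7A11 had none. The cells were A549, a human lung adenocarcinoma line, stably overexpressing MYOCD from the vector pWPI. From this 1 line came 1 anti-Myocardin library and 1 IgG library, and the cells of both carried the overexpression. Serum was at 10% for both. Cells with the empty vector were not analysed here. Myocardin is a coactivator of muscle genes that reaches DNA through the serum response factor, which binds the CArG box. The list ties no summit to either antibody, so each value below describes the list and not a difference between anti-Myocardin and IgG. It gives no depth, no peak width and no RNA level. With 1 library per antibody there was no replicate and no test of a difference.

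NRF2 (gene NFE2L2) pairs with small MAF proteins on the antioxidant response element and switches on genes of glutathione synthesis, quinone detoxification and haem breakdown. KEAP1 normally holds NRF2 down by presenting it to a CUL3 ubiquitin ligase. A549 cells are known to carry an inactivating KEAP1 mutation, and NRF2 targets are highly expressed in them. The KEAP1 state and the activity of NRF2 were not measured in these data. The question put to the list was whether its summits lie at these genes more or less densely than elsewhere on their chromosomes.

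Promoter sequences from RefSeq (GRCh38.p14) were matched for 2 of the 4 genes, GCLM and NQO1, and are shown because the position of summits relative to the gene start was the main difference between the members. Each runs from 250 bases before to 50 bases after a gene start on the minus strand. GCLM lies at chr1:93909381-93909680 and NQO1 at chr16:69726511-69726810. These coordinates belong to another build than the summits, so no summit was placed on the letters. The starts of these promoters were not matched to the GRCh37 span ends from which summit distances are measured, and may differ from them. Capitals mark a match to the antioxidant response element.
GCLM: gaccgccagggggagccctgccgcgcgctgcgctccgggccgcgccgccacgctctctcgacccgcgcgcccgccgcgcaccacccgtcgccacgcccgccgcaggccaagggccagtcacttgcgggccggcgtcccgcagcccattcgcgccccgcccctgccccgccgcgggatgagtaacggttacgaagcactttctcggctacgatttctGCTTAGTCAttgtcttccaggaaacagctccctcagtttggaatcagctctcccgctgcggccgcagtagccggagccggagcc
NQO1: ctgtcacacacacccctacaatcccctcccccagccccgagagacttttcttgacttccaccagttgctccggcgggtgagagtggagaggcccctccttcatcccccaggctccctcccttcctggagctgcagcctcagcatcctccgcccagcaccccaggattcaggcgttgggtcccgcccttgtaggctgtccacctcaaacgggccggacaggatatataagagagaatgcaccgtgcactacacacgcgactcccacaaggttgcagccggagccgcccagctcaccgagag
The core of the element was searched as TGACNNNGC on both strands. The GCLM promoter held 1 match, 34 to 26 bases before the start, which reads TGACTAAGC on the strand opposite to the gene. The NQO1 promoter held none in these 300 bases. Sequence outside them was not searched, so this does not show that NQO1 lacks the element. A match occurred in 16.1% of the 27305 genes with a promoter in the table, counting a gene with several starts once. The CArG box, which reads the same on both strands, was found in neither promoter, and in 1.60% of all genes. At so low a share, 2 promoters cannot show a lack of the box. GCLM was richer in G and C than NQO1, at 71.7% and 62.7%, against a median of 58.7% over 35116 promoters.

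Together the 4 genes held somewhat fewer summits than their chromosomes would give, by less than the counting error. The 8 summits compared with 10.3 expected from the mean of equal-length windows on the same chromosomes, a ratio of 0.777 (exact Poisson 95% interval 0.336 to 1.53, counting error only). The interval includes 1, and 8 summits cannot show a difference smaller than its width. The ratio was 0.968 without SLC7A11, and 1.05 for gene spans with no flank. Of the 8 summits, 4 lay inside a gene span, 3 in an upstream flank and 1 in a downstream flank. The windows tiled each chromosome completely, leaving out stretches of at least 1 Mb without a summit. Windows with other genes and windows without any were not told apart, since no GRCh37 annotation was used.

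**Figure D1:**
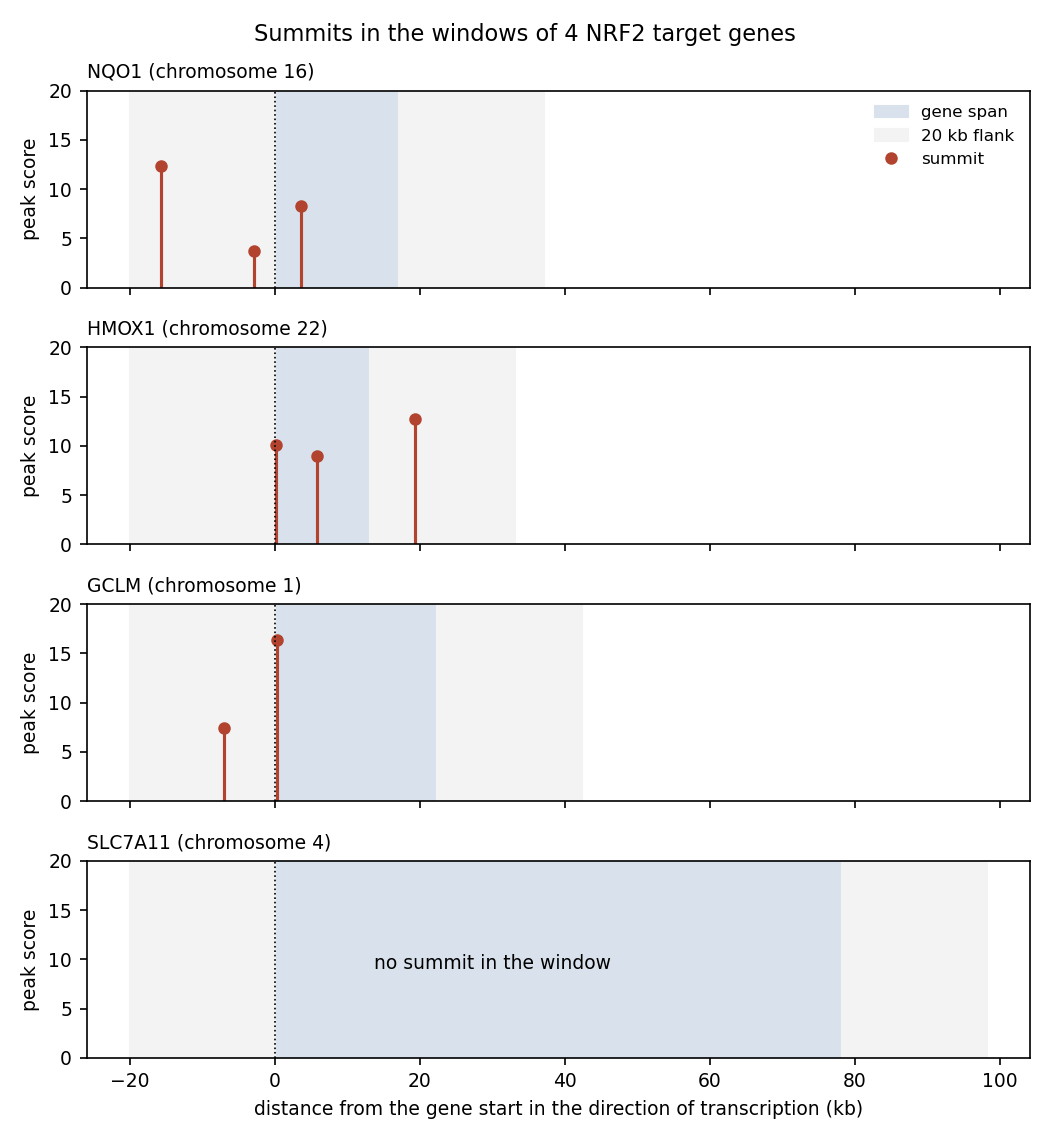
Position and peak score of the 8 summits relative to each gene start, in kb in the direction of transcription; shading marks the gene span and the 20 kb flanks. A summit stands within 0.4 kb of the start of HMOX1 and of GCLM, NQO1 has one on either side of its start, and the SLC7A11 window is empty.

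HMOX1, which encodes heme oxygenase 1, the inducible enzyme that opens the haem ring, had the summit nearest to a gene start. Its span is 35777060 to 35790207 on the plus strand of chromosome 22, and its window held 3 summits. The first lay at position 35777236, 176 bp downstream of the start, with a peak score of 10.1. The second lay at 35782850 inside the gene, 5.79 kb from the start, with a score of 8.91. Between them was a spacing of 5.61 kb. The last lay at 35796401, 6194 bp past the end of the gene, and had the highest score of the window at 12.7. MCM5, which encodes a subunit of the replicative helicase, is the next protein-coding gene on that side in the RefSeq order, and no GRCh37 span of it was used. This last summit is therefore not assigned to HMOX1. Upstream of HMOX1, where inducible enhancers are known from the mouse gene, the 20 kb flank held no summit, and the nearest one lay 28.2 kb before the start with a score of 4.40.

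A count of 3 was ordinary for chromosome 22, where 54.9% of 661 windows of 53.1 kb held at least as many, with a median of 3 and quartiles of 1 and 4. The distance to the start stood further out. Only 1.85% of positions taken every 1 kb along the covered sequence of chromosome 22 were as near a summit as the HMOX1 start, and the median position was 6.46 kb away. Other gene starts were not measured, so this share does not separate HMOX1 from gene starts in general. All 3 scores lay above the chromosome median of 6.73, and they exceeded 73.2%, 80.2% and 90.3% of the scores on chromosome 22. Against the whole list they exceeded 52.4%, 61.5% and 77.0%. The summit at the start was not in the top 25% of scores of the whole list. Among summits of that class the nearest summit to the HMOX1 start was the one 19.3 kb downstream. In the gene span alone, with its 2 summits, the share of windows with at least as many was 16.5%.

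GCLM, the modifier subunit of glutamate-cysteine ligase, which catalyses the first step of glutathione synthesis, also had a summit just inside its start. Its span is 94352590 to 94375012 on the minus strand of chromosome 1. The summit at 94374615 lay 397 bp downstream of the start and scored 16.4, the highest value among the 8. It exceeded 87.7% of the list and 87.8% of chromosome 1. The other summit, at 94381917, lay 6.91 kb upstream of the start and scored 7.37, which exceeded 36.5% of the chromosome. Both therefore sat in the 7.30 kb around the start, and the rest of the gene and its downstream flank held none.

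The GCLM window held 2 summits in 62.4 kb, as many as the median window of chromosome 1, and 53.3% of its 3654 windows held at least 2. The distance of 397 bp was shared or undercut by 2.82% of positions on chromosome 1, whose median distance was 11.8 kb. With HMOX1 it was one of 2 members with a summit within 1 kb of the start. Background shares for that distance were 10.1% of positions on chromosome 22 and 6.78% on chromosome 1. They were 10.5% on chromosome 16 (NQO1) and 3.3% on chromosome 4 (SLC7A11), whose members had no summit so near. These shares and the 2.82% cover positions at large. Other gene starts were not measured, so they do not separate the members from gene starts in general. Unlike HMOX1, the GCLM start kept its summit in the list reduced to its top 25% of scores. That threshold is set over the whole list, and 10.9% of summits on chromosome 22 reached it, against 25.6% on chromosome 1. Within its own chromosome, the summit at the HMOX1 start exceeded 80.2% of scores and so was also in the top 25%. Both GCLM scores are values that many peaks of the list carry: 618 peaks had exactly the score of the summit at the start and 4026 had that of the upstream one. The scores of the 6 other member summits were each shared by 6 to 48 peaks.

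NQO1, a quinone reductase that is a standard readout of NRF2, had summits on both sides of its start but none at it. Its span is 69743304 to 69760533 on the minus strand of chromosome 16. Inside the gene a summit lay at 69756939, 3.59 kb downstream of the start, with a score of 8.27, near the chromosome median of 8.25. The summit at 69763366 lay 2.83 kb upstream and scored 3.73, the lowest of the 8 and higher than only 2.36% of the scores on chromosome 16. Another, at 69776152, lay 15.6 kb upstream and scored 12.3, above 79.0% of the chromosome. NOB1, a ribosome assembly factor, is the next protein-coding gene upstream in the RefSeq order, so that this strongest summit of the window is not assigned to NQO1. On chromosome 16, 51.2% of 1381 windows of 57.2 kb held at least 3 summits, and the median was 3. At least as near a summit as the NQO1 start were 26.9% of positions on chromosome 16, where the median distance was 6.91 kb. NQO1 was thus unlike HMOX1 and GCLM in its start and like them in its count.

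**Figure D2:**
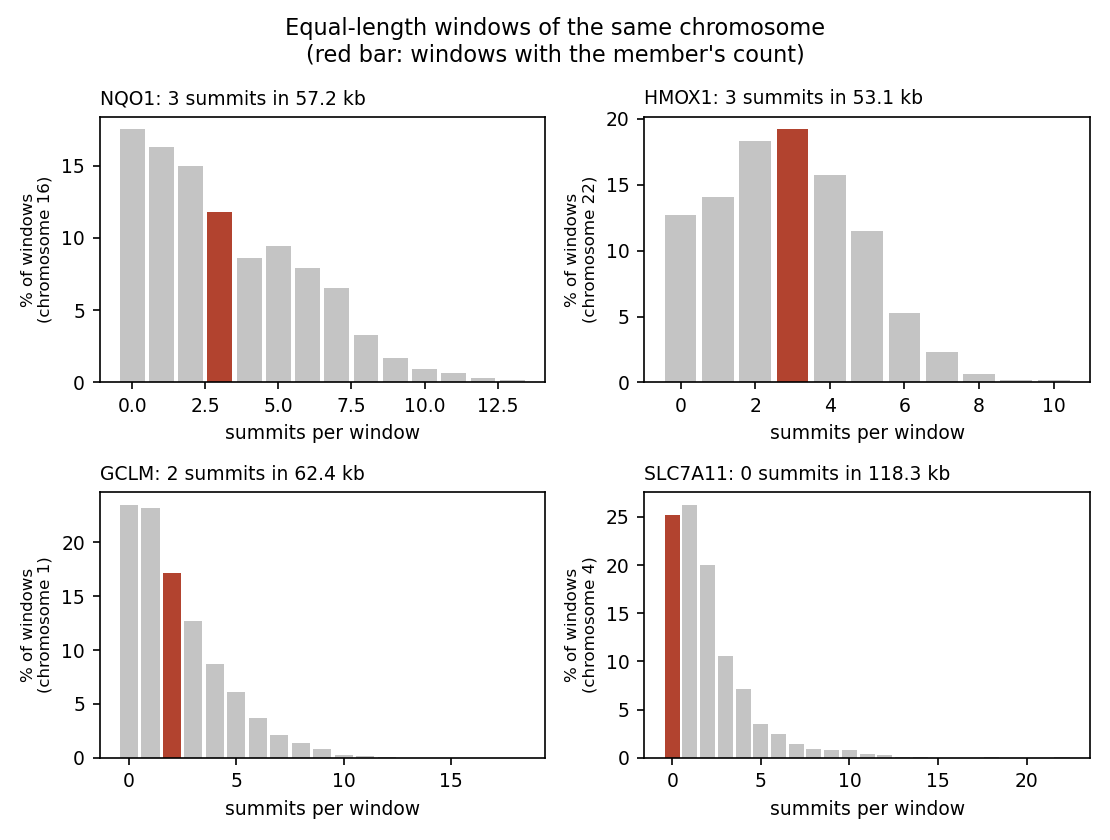
Distribution of summit counts over adjoining windows of the same length on the same chromosome, as a percentage of windows; the red bar is the count found at the gene. NQO1, HMOX1 and GCLM fall at the median of their chromosome (3, 3 and 2), and SLC7A11 falls in the bar at 0, which holds 25.2% of windows.

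SLC7A11, the cystine transporter subunit xCT that supplies cysteine for glutathione, had no summit at all. Its window was the longest, 118.3 kb, with a gene span of 78.3 kb from 139085248 to 139163503 on the minus strand of chromosome 4. The nearest summit was 84.2 kb upstream of the start, at 139247716, with a score of 7.37, the same value as the upstream summit of GCLM. The nearest in the other direction was 113.8 kb downstream of the start, at 139049682, past the end of the gene, with a score of 5.64. The gene thus lay within a stretch of 198.0 kb between adjacent summits. On chromosome 4, 84.9% of positions were at least as near a summit as the SLC7A11 start, with a median distance of 26.2 kb. An empty window was common there: 25.2% of its 1588 windows held no summit, and the median was 1. Stretches at least this long made up 5.94% of the spacings on chromosome 4 below 1 Mb and 31.8% of the sequence they span. A summit list shows only what passed the caller's threshold, so no summit does not mean no signal.

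Summits near the window edges were few. Just inside an edge lay the NQO1 summit at 69776152, 4.38 kb from it, while the nearest summits outside the NQO1 window were 5.05 kb and 5.28 kb beyond its edges, with scores of 5.85 and 6.25. Outside the HMOX1 window the nearest were 8.18 kb and 10.0 kb beyond, with scores of 4.40 and 9.50. For GCLM they were 19.2 kb and 27.5 kb beyond, and for SLC7A11 15.6 kb and 64.2 kb beyond.

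**Figure D3:**
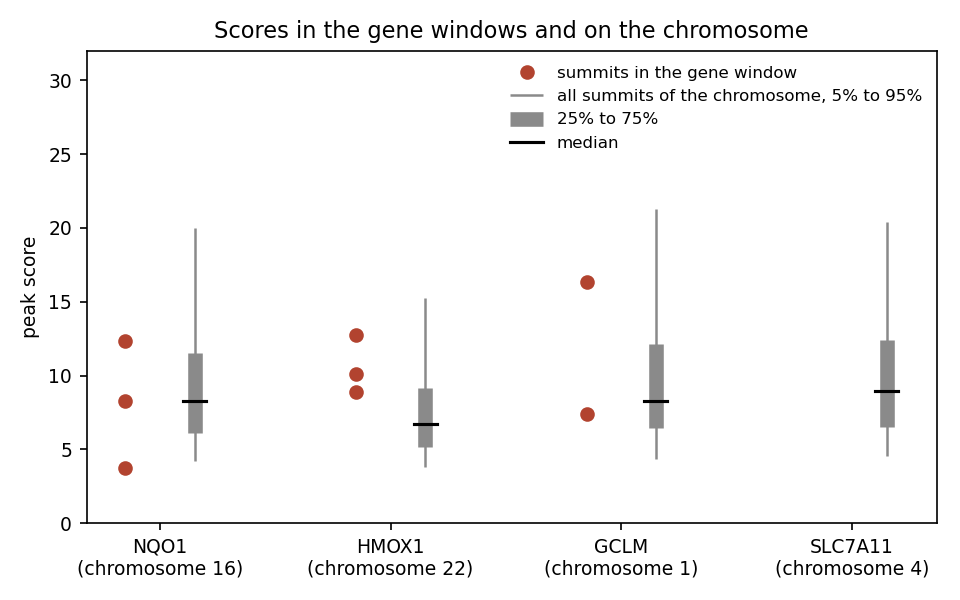
Peak scores of the summits in each gene window (red points) beside all summits of the same chromosome (grey: 5% to 95% as a thin line, 25% to 75% as a thick line; black: median). The 3 HMOX1 summits lie above the median of chromosome 22, and the NQO1 and GCLM summits lie on both sides of theirs.

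The scores of the 8 summits were of middling size for the list. They ran from 3.73 to 16.4 with a median of 9.50, against a list median of 8.50 and a list maximum of 281.4. In the top 25% of scores were 3 of the 8 (37.5%, exact Clopper-Pearson 95% interval 8.52% to 75.5%, counting error only), against 26.3% of the list, where ties at the threshold raise the share. Over the 4 chromosomes together the share was 23.7%, and on chromosome 22 it was 10.9%. With the threshold at the top 25% of the same chromosome, 4 of the 8 passed (50%). With flanks of 50 kb and the threshold of the list, 4 of 19 did (21.05%). The 3 summits in the top 25% of the list were the one at the GCLM start and the 2 outermost summits of HMOX1 and NQO1. Those 2 lay in the flanks that face MCM5 and NOB1. The authors' score has no stated unit and served only to rank summits within this list.

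The wider surroundings of the 4 genes were also set beside their chromosomes. Within 1 Mb of the start, NQO1 had 141 summits (70.5 per Mb), SLC7A11 35 (17.5 per Mb), GCLM 50 (25 per Mb) and HMOX1 49 (24.5 per Mb). The median window of 2 Mb held 48.0 per Mb on chromosome 16 (NQO1), 13.5 on chromosome 4 (SLC7A11), 31.5 on chromosome 1 (GCLM) and 58.0 on chromosome 22 (HMOX1). NQO1 and SLC7A11 thus lay in regions denser than the median of their chromosomes, and 28.9% (11 of 38) and 29.0% (27 of 93) of 2 Mb windows held at least as many. GCLM and HMOX1 lay in sparser ones, with at least as many summits in 63.7% (72 of 113) and 94.1% (16 of 17) of windows.

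Close to the starts, the number of summits was ordinary for each chromosome. Within 100 kb of the HMOX1 start there were 13 summits, or 65.0 per Mb, against a mean of 53.6 per Mb on chromosome 22, and 40% of its windows of 200 kb held at least 13. The rest of the 2 Mb around HMOX1 was sparser, at 20 per Mb. Within 100 kb of the SLC7A11 start there was 1 summit, and 29.1% of 200 kb windows on chromosome 4 held 1 or none, with a median of 2. GCLM had 6 summits within 100 kb, the median of chromosome 1, where 51.2% of windows held at least as many. NQO1 had 8, against a median of 10 on chromosome 16, where 57.1% of windows held at least as many. Of the 40 bins of 50 kb around each start, 20 held no summit at SLC7A11, 17 at HMOX1, 12 at GCLM and 0 at NQO1. The distance of 100 kb was chosen after these bins were seen.

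**Figure D4:**
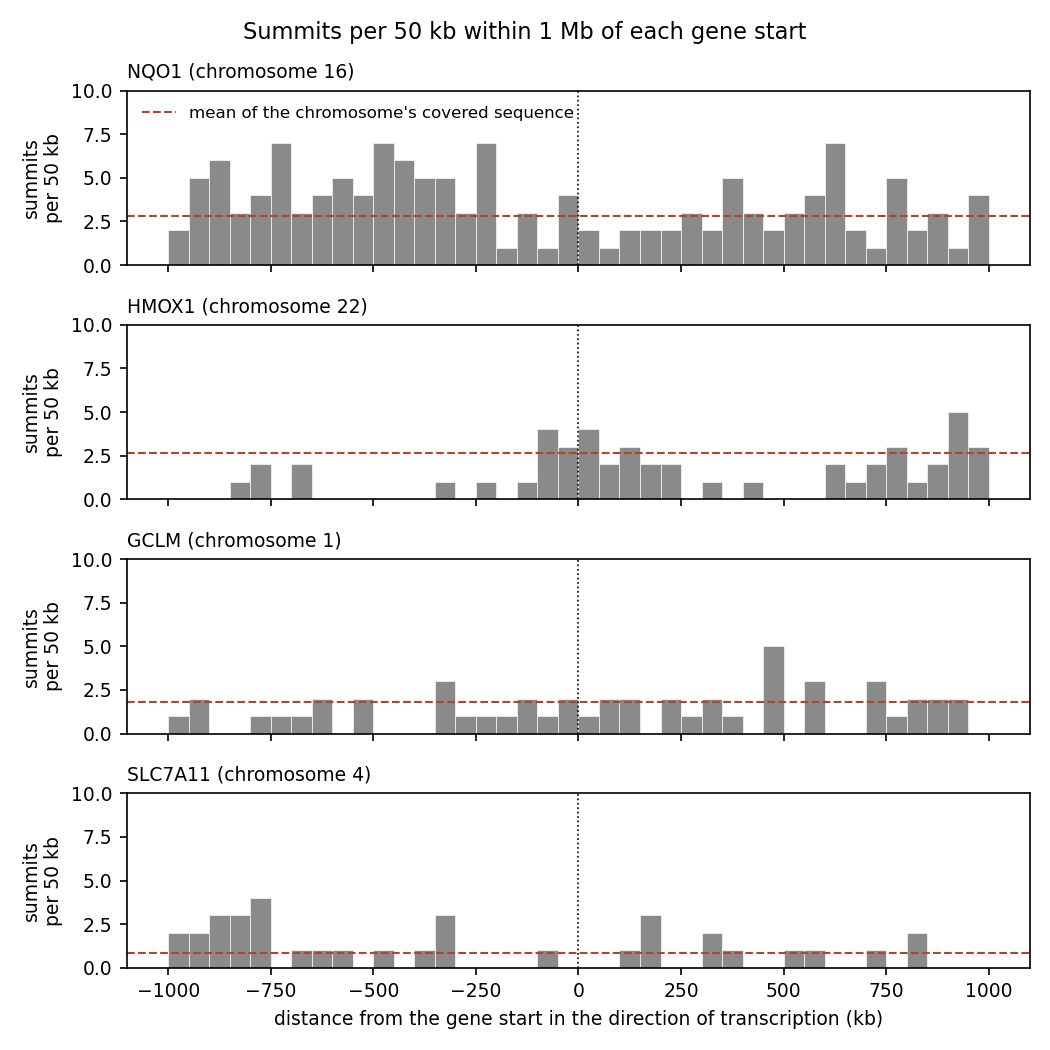
Summits per 50 kb within 1 Mb on each side of the 4 gene starts, in the direction of transcription; the dashed line is the mean of the covered sequence of the chromosome. HMOX1 has 13 summits within 100 kb of its start, SLC7A11 has 1, and no bin around NQO1 is empty.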

How the data were processed

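Summit positions were taken from the 1 deposited list of the series, in which each row has a chromosome, start, end, strand and peak score, per the file headers. The score per summit is used as the authors deposited it, and its scale is not stated. The list name refers to MACS. Not given in the sources used here are the aligner, the caller's version and threshold, the use of the IgG library and the handling of duplicates. Libraries were amplified for 15 cycles, per the labels' protocols. The submitters' processing notes name CASAVA 1.4, mm9 and GRCh38.p12. The positions were read as GRCh37: 0 nuclear summits lie past a chromosome end there, against 1093 on GRCh38 (chromosome lengths from GenomeInfoDb 1.38.1). Depth per sample is not given, and the number of per-sample value columns left out is 0.

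The end coordinate was taken as the summit. Gene spans in GRCh37 were given, and strands of HMOX1 and SLC7A11 were taken as generally known. Summits were counted in each span plus 20 kb per side, and in all adjoining windows of equal length over the covered sequence (first to last summit without summit-free stretches of at least 1 Mb). A complete tiling replaced random windows, and no p-value was computed. Counting was checked on simulated lists. Every member summit is named, by a rule for up to 40 summits. Members and lists were chosen with earlier results of these data known. Spans of other NRF2 pathway genes in GRCh37 were not used here. Python 3.11.15, pandas 2.3.3 and scipy 1.17.1 were used.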

Additional observations from a re-analysis of the deposited data

How the results depend on the processing

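No paired analysis was possible because each antibody has 1 library and no column is tied to either. Of 99 alternatives over 14 results, 66 stayed near the main value and 33 moved. Near meant within 1.5 times the count or distance, or within the 95% interval of the share or ratio. Those that left out 1 gene were chosen after seeing the data. The 66 do not measure robustness, since many could not move. Changing only the comparison windows leaves a gene's own count as it is, and the start coordinate shifts a summit by 1 bp. All alternatives of the ratio and of the share of high scores stayed, but their intervals were wide (0.336 to 1.53 and 8.52% to 75.5%). The ratio over the 4 windows ran from 0.671 without HMOX1 to 1.39 for the top 25% of scores, and passed above 1 there and for gene spans alone (1.05). With flanks of 10 kb, the share of windows with at least as many summits was 28.9% for HMOX1 and 40.4% for GCLM, and 29.8% of windows were as empty as SLC7A11. With flanks of 50 kb, NQO1 had 6 summits, HMOX1 7, GCLM 5 and SLC7A11 1, and the shares were 43.5% for HMOX1 and 40% for GCLM. On chromosome 4, 13.2% of windows of that length held no summit. As SLC7A11 itself then held 1, this share does not say how common its count was. For gene spans alone, NQO1 and GCLM had 1 summit each, and the shares were 55.8% (NQO1), 16.5% (HMOX1), 48.7% (GCLM) and 37.4% (SLC7A11, empty windows). For the top 25% of scores NQO1, HMOX1 and GCLM had 1 summit each, the shares were 47.1%, 25% and 41.2%, empty windows on chromosome 4 made up 60.3%, and the nearest summit was 15619 bp from the NQO1 start, 19341 bp from HMOX1 and 153317 bp from SLC7A11. Fewer summits in the list and shorter or longer windows set these counts by construction. With summits within 1.5 kb merged, HMOX1 stood at 50.8% and GCLM at 51.7%. With summit-free stretches included, NQO1 stood at 44.9% and GCLM at 48.7%. With windows within 5 Mb of the gene only, NQO1 stood at 61.7%, HMOX1 at 41.5% and GCLM at 31.2%; the cause was not tested. No library could be left out, and the limit set by depth is unknown.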

Other observations

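Promoters of other NRF2 pathway genes gave a view of the element that carries NRF2, apart from the summits. Of 32 such genes, 26 had a promoter of 300 bases in the RefSeq table (GRCh38.p14). The core TGACNNNGC occurred in 7 of them (26.9%), against 16.1% of all 27305 genes. This difference was not tested, and 26 genes are too few to measure it closely. The 7 were TXNRD1 (thioredoxin reductase), ME1 and PGD (enzymes that make NADPH), GPX2 (a glutathione peroxidase), EPHX1 and CBR1 (detoxifying enzymes) and KEAP1, the inhibitor of NRF2. The CArG box occurred in none of the 26, against 1.60% of all genes. At so low a share, 26 genes of any kind would most likely hold none, so this count cannot show a lack of the box. These are letters in a short window; they were not related to the summits.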
